A study of Mus musculus with 12 samples.

Results

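Nuclear genes of respiratory complexes II to V were taken by symbol: all genes whose name starts with Cox4i, Cox5, Cox6, Cox7, Cox8, Uqcr or Atp5, and Cyc1, Sdha, Sdhb, Sdhc and Sdhd. The pattern matched 51 of the 41388 genes in the count table. Leaving out 3 pseudogene names ending in -ps left 48 members, of which 4 belong to complex II, 9 to complex III, 18 to complex IV and 17 to complex V. In this poly(A) RNA-seq of mouse cortex 46 of the 48 had enough counts to be tested, and 41 averaged at least 5 CPM, counts scaled to library size by the TMM method. The genes left untested were Cox8c, with 0 counts in every library, and Cox7b2, with 2 to 11 counts per library.

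Complex II, succinate dehydrogenase, passes electrons from succinate to ubiquinone, complex III passes them on to cytochrome c, and complex IV, cytochrome c oxidase, hands them to oxygen. Complexes III and IV pump protons across the inner mitochondrial membrane, and complex V, ATP synthase, lets them flow back to make ATP. Complex II is encoded wholly in the nucleus, whereas complexes III, IV and V each combine nuclear subunits with subunits encoded in mitochondrial DNA. Neurons draw most of their ATP from this chain, and NMDA receptors, ligand-gated channels that admit calcium, are among the synaptic channels whose ion flux must be pumped back at the expense of ATP.

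The 12 libraries came from adult C57Bl/6 mice in 4 groups of 3. Grin1, which encodes the obligatory GluN1 subunit of NMDA receptors, has an alternatively spliced exon 5. KI mice carry the knock-in allele in which exon 5 is constitutive (labelled Grin1-exon5+/+), and KI_WT mice are the wild types of that line. KO mice lack exon 5 (labelled Grin1-exon5-/-), and KO_WT mice are the wild types of the knockout line. The labels give whole-animal genotypes with no cell-type driver, and no sex. Libraries are numbered 1 to 3 within a group only to name them.

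Library totals were 31790970 to 36514024 counts, of which the 48 members took 0.644% to 0.818%. Grin1 itself lay at 269 to 363 CPM, with means of 311 CPM in KI, 319 CPM in KI_WT, 307 CPM in KO and 333 CPM in KO_WT. A count over the whole gene does not check an exon. All 8 markers of cortical excitatory neurons were detected in every library (summed level 2736 to 4801 CPM). Markers of other regions varied: the 8 choroid plexus markers summed to 20.3 to 1915 CPM and the 8 olfactory bulb markers to 21.96 to 400.5 CPM. The 4 Y-linked genes summed to under 1 CPM in 5 libraries (KI 2, KI 3, KI_WT 1, KO 1 and KO 2) and to 185 to 234 CPM in the other 7. In variance, averaged over genes, pairs of replicates differed 13.6 to 73.7 times as much as sampling of reads alone would give. Genes with very high counts can weigh heavily in this mean, so it is not the spread of a typical gene.

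Levels of different genes were compared in RPKM, read counts scaled for gene length and library size, as the authors deposited them. Complex IV held both the highest and the lowest members. Summed over members, complex II reached 275 ± 20.6 RPKM in KI, 254 ± 14.8 in KI_WT, 267 ± 16.1 in KO and 243 ± 6.40 in KO_WT (SD, n = 3 each). Complex III summed to 906 ± 83.4 RPKM in KI, 853 ± 71.0 in KI_WT, 901 ± 76.5 in KO and 765 ± 45.8 in KO_WT. Complex IV summed to 2268 ± 175 RPKM in KI, 2249 ± 209 in KI_WT, 2354 ± 225 in KO and 2050 ± 4.53 in KO_WT, and complex V to 1534 ± 125 in KI, 1458 ± 136 in KI_WT, 1502 ± 148 in KO and 1321 ± 41.7 in KO_WT. KO_WT had the lowest mean of the 4 groups for each complex.

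In complex II, the flavoprotein Sdha averaged 121 RPKM over the 12 libraries, the membrane anchor Sdhd 70.1, the iron-sulfur subunit Sdhb 46.4 and the other anchor, Sdhc, 22.7. The 9 complex III members were close to each other. They ran from 118 RPKM for the hinge protein Uqcrh to 42.3 RPKM for Uqcrq, with the core subunits Uqcrc2 and Uqcrc1 at 98.2 and 88.8, the Rieske protein Uqcrfs1 at 95.6 and cytochrome c1 (Cyc1) at 87.7 RPKM.

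Complex IV was split by tissue form. Cox8a averaged 521 RPKM, Cox6b1 342, Cox6a1 224, Cox4i1 196, Cox7a2 146 and Cox7b 96.9. Their counterparts known from heart and skeletal muscle (Cox6a2, Cox7a1 and Cox8b), lung (Cox4i2) or testis (Cox6b2, Cox7b2 and Cox8c) stood at 6.10 RPKM or below, with Cox7a1 at 3.25, Cox4i2 at 1.22, Cox6b2 at 1.11, Cox8b at 1.01 and Cox7b2 at 0.392. Expressed as a share of the family's RPKM in a library, Cox6a2 made up 2.01% to 3.98% of Cox6a, Cox7a1 0.715% to 1.93% of Cox7a, Cox4i2 0.373% to 0.817% of Cox4i, Cox6b2 0.229% to 0.439% of Cox6b, and Cox8b 0.0155% to 0.567% of Cox8. Cox7a2l made up 34.8% to 46.7% of the Cox7a family. The 8 striated muscle markers summed to 7.50 to 12.8 CPM.

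In complex V the beta (Atp5b) and alpha (Atp5a1) subunits of the catalytic head averaged 242 RPKM each, with gamma (Atp5c1) at 105, delta (Atp5d) at 62.4 and epsilon (Atp5e) at 35.4 RPKM. Among the stalk and membrane subunits, Atp5l (subunit g) stood at 156 RPKM, Atp5h (d) at 138, Atp5f1 (b) at 65.2 and the oligomycin sensitivity protein Atp5o at 65.1. The lowest were Atp5s at 12.8 and Atp5sl at 9.05 RPKM. These belong to the set by name alone, since Atp5s is a coupling factor and Atp5sl is known in complex I assembly.

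**Figure D1:**
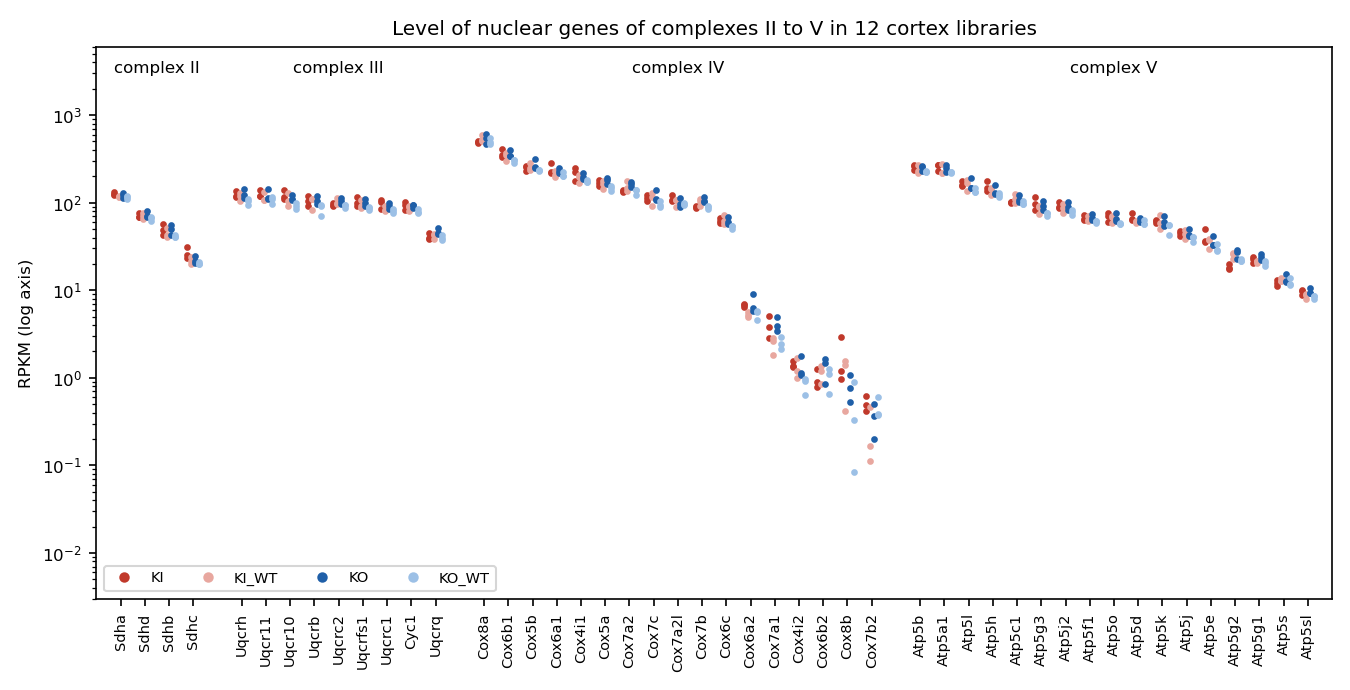
RPKM (log axis) of the members with at least 1 count, with 1 point per library, coloured by group and ordered within each complex by mean level. Most members lie between 10 and 1000 RPKM, and the muscle, lung and testis forms of complex IV average 6.10 RPKM or below, with a highest single value of 9.16 RPKM for Cox6a2 in KO 3.

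Libraries of the same group differed in the overall level of the members. The median log2 deviation of the 41 members from their mean over all libraries was 0.04, 0.10 and -0.030 in KI 1 to 3, and -0.10, 0.10 and 0.05 in KI_WT 1 to 3. It was 0.19, -0.0078 and -0.022 in KO 1 to 3, against -0.13, -0.10 and -0.065 in KO_WT 1 to 3. KO 1 was the highest library and KO_WT 1 the lowest. The SD within groups was 0.09. Of single members, the within-group SD of the log2 level was 0.12 at the median, beside 0.13 for all 11772 tested genes of at least 5 CPM. It was smallest for Sdha (0.06) and largest for Atp5k (0.19), subunit e of ATP synthase.

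The same libraries stood high for other sets. In KO 1 the 36 nuclear complex I subunits deviated by 0.17, the 78 cytosolic ribosomal proteins by 0.21 and the 77 mitochondrial ribosomal proteins by 0.11. The 316 other genes under 1000 bp (of at least 5 CPM) deviated there by 0.18, against -0.0066 for the 11415 longer ones. In KI_WT 2 the cytosolic ribosomal proteins deviated by 0.24 and the other short genes by 0.11. The part of gene length, RNA quality or tissue make-up in these shifts was not tested.

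**Figure D2:**
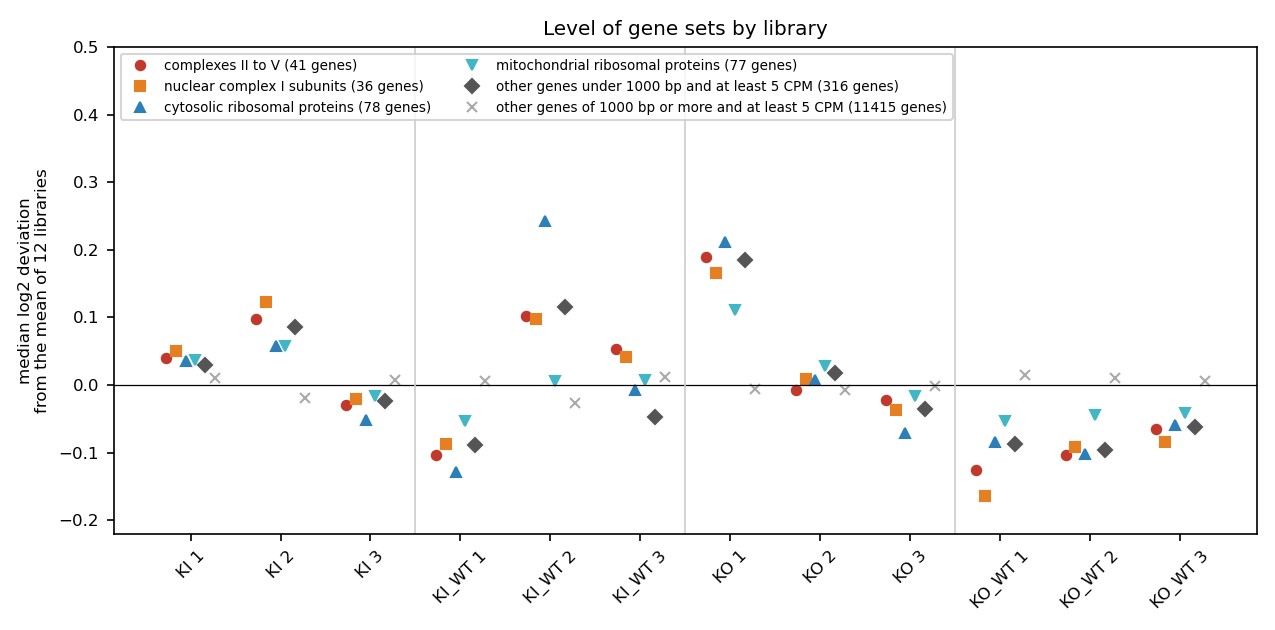
Median log2 deviation of 6 gene sets from their mean over the 12 libraries, with 1 symbol per set and library. The 41 members of complexes II to V are highest in KO 1 (0.19) and lowest in KO_WT 1 (-0.13), and the other genes of 1000 bp or more stay within -0.027 to 0.02.

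The first comparison set KI against KI_WT cortex, within the knock-in line. The clearest value was for Atp5g2, which was lower in KI than in KI_WT cortex. Cox7b, Cox7a2, Cox8a, Atp5c1 and Uqcrc2 also lay lower in KI without overlap, whereas Sdhc, Sdha, Atp5d and Cox6a2 lay higher without overlap and Cox7a1 higher with overlap. Leaving out the weakly expressed muscle, lung and testis forms, the other members lay between -0.15 and 0.17 on the log2 scale. With edgeR's quasi-likelihood test and Benjamini-Hochberg adjustment, 0 of 46 members passed 0.05, and neither did any of the 17441 genes (0%). DESeq2 called 4 genes, of which 1 was a member. In bulk tissue, fewer cells of a type and less RNA per cell cannot be told apart. Sex was uneven here: the Y-linked genes summed to under 1 CPM in KI 2, KI 3 and KI_WT 1. The part of sex in these differences was not tested beyond a term for the Y-linked genes in the model.

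Of the 46, 29 lay higher in KI (48.7% of all tested genes), and the median log2 fold change was 0.04, beside -0.0054 for all genes. Without KI_WT 1 the members' median was -0.028. An unadjusted p under 0.05 was reached by 7 members (6.96% of all genes), 2 of them higher in KI (3.04% of genes) and 5 lower (3.92%). For 4 members every KI library lay above every KI_WT library and for 6 members below, against 6.32% and 5.87% of all genes. By complex, 3 of 4 members lay higher in complex II (median 0.08), 7 of 9 in complex III (0.05), 9 of 16 in complex IV (0.03) and 10 of 17 in complex V (0.03).

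Atp5g2 encodes the c subunit of ATP synthase, the protein of the rotating membrane ring. It had 33.4, 27.6 and 30.1 CPM in KI libraries, against 38.7, 45.9 and 42.8 CPM in KI_WT libraries. The groups did not overlap. Atp5g2 gave a log2 fold change of -0.48 with SE 0.10 and a 95% interval of -0.70 to -0.27. Its unadjusted p of 0.000326 in edgeR's test was the second smallest of the table, and its adjusted p was 0.705. DESeq2, run as an alternative, called it with an adjusted p of 0.0361 at a log2 fold change of -0.49. Over all 20 alternatives for this comparison the log2 fold change was -0.58 to -0.39 and the adjusted p 0.0361 to 0.910.

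The same c subunit protein, once its targeting peptide is removed, is also made from Atp5g1 and Atp5g3, so that the 3 genes differ chiefly in their transcription and in their targeting peptides. Atp5g1 had 112, 111 and 102 CPM in KI libraries and 104, 108 and 106 CPM in KI_WT libraries (log2 fold change 0.03, SE 0.07). Atp5g3 had 209, 236 and 183 CPM in KI libraries and 165, 198 and 198 CPM in KI_WT libraries (0.16, SE 0.11, adjusted p = 0.795 by edgeR's test). The groups overlapped for both. As a share of the summed RPKM of the 3 genes, Atp5g2 made up 14.4%, 11.2% and 14.7% in KI libraries, against 19.3%, 19.5% and 18.5% in KI_WT libraries. In the knockout line the Atp5g2 share was 18.4%, 19.4% and 18.1% in KO and 19.5%, 18.1% and 19.0% in KO_WT. The KI libraries thus lay below the other 9, while Atp5g3 made up 69.1%, 73.5% and 68.4% in KI and 63.0% to 65.9% in the other groups. These shares are built on the values that made Atp5g2 stand out and are given as a description.

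**Figure D3:**
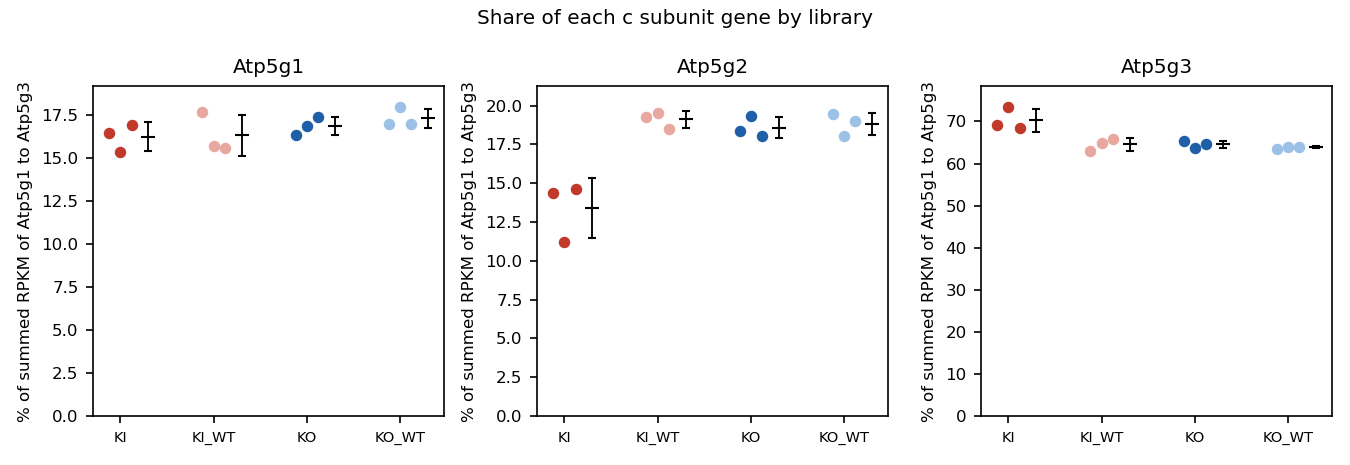
Share (%) of the summed RPKM of Atp5g1, Atp5g2 and Atp5g3 held by each gene, with points for libraries and bars for mean ± SD (n = 3) in KI, KI_WT, KO and KO_WT. The Atp5g2 share is 11.2% to 14.7% in KI and 18.1% to 19.5% in the other 3 groups.

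The start regions of the 3 genes are shown because they make the same protein but did not have the same values here. Each runs from 250 bases before to 50 after the RefSeq start (build GRCm38.p6, minus strand): chr11:96075582-96075881 for Atp5g1, chr15:102670998-102671297 for Atp5g2 and chr2:73911277-73911576 for Atp5g3. The 11 capitals mark a motif of nuclear respiratory factor NRF1 (their first 10 letters, a palindrome) with the overlapping shorter form TGCGCA (their last 6).
Atp5g1: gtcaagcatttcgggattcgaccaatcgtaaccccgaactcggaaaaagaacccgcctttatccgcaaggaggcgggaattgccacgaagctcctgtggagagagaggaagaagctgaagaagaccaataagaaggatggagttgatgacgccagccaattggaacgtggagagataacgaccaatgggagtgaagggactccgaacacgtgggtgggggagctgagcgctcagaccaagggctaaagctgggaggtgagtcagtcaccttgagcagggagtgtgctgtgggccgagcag
Atp5g2: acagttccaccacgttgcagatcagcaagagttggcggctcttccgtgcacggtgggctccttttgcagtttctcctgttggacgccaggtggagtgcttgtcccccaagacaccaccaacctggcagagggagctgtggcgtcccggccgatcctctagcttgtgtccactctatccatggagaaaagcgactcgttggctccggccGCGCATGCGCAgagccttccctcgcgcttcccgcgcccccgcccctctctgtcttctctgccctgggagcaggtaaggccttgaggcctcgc
Atp5g3: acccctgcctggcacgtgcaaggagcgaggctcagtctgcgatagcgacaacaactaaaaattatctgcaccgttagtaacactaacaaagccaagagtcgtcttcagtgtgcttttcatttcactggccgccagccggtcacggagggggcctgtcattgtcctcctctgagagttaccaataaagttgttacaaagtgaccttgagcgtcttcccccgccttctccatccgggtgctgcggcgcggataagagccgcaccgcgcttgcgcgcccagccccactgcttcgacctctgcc

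Of the 3 windows, that of Atp5g2 alone holds the full NRF1 motif. In the GENCODE annotation Atp5g2 spans 102662864 to 102672352 on chromosome 15, so that the annotated gene begins upstream of the RefSeq start shown. Nrf1 itself lay at 16.8 ± 1.03 CPM in KI and 15.4 ± 1.07 CPM in KI_WT (log2 fold change 0.12, SE 0.09).

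Of the complex IV members with low values in KI, Cox7b, on the X chromosome, had 106, 102 and 111 CPM in KI libraries, against 114, 137 and 126 CPM in KI_WT libraries (log2 fold change -0.24, SE 0.08, adjusted p = 0.705 by edgeR's test). Cox7a2, the form found in most tissues, had 99.7, 96.2 and 105 CPM in KI libraries, against 106, 135 and 109 CPM in KI_WT libraries (-0.22, SE 0.09). Cox8a had 261, 264 and 268 CPM in KI libraries, against 287, 331 and 283 CPM in KI_WT libraries (-0.18, SE 0.10). For each of the 3 genes every KI library lay below every KI_WT library, and KI_WT 2 was the highest of the 6. Without KI_WT 2 the log2 fold changes were -0.17 for Cox7b, -0.10 for Cox7a2 and -0.11 for Cox8a.

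Atp5c1, the gamma shaft of the ATP synthase motor, had 191, 182 and 188 CPM in KI libraries, against 195, 215 and 235 CPM in KI_WT libraries (log2 fold change -0.20, SE 0.08). Uqcrc2, a core subunit of complex III, had 243, 221 and 232 CPM in KI libraries, against 254, 251 and 277 CPM in KI_WT libraries (-0.17, SE 0.07). Neither pair of groups overlapped, and the adjusted p-values by edgeR's test were 0.705 and 0.714. Without KI_WT 3 the log2 fold changes were -0.13 for Atp5c1 and -0.12 for Uqcrc2.

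Of the members with high values in KI, Sdhc, a membrane anchor of complex II, had 81.1, 95.3 and 77.0 CPM in KI libraries, against 66.8, 72.5 and 76.1 CPM in KI_WT libraries (log2 fold change 0.23, SE 0.09, adjusted p = 0.705 by edgeR's test). The lowest KI library was just above the highest KI_WT library, and without KI 2 the log2 fold change was 0.14. The other complex II genes gave log2 fold changes of 0.10 for Sdhb, 0.07 for Sdha and -0.036 for Sdhd. Cox7a1, the heart and muscle form of Cox7a, had 1.39, 1.74 and 1.05 CPM in KI libraries, against 1.07, 0.978 and 0.657 CPM in KI_WT libraries (0.63, SE 0.26, adjusted p = 0.705), and these overlapped. Its share of Cox7a RPKM was 1.58%, 1.92% and 1.17% in KI and 1.24%, 0.921% and 0.715% in KI_WT.

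Uqcrc1, the other core subunit of complex III, had 167, 167 and 140 CPM in KI libraries and 138, 141 and 150 CPM in KI_WT libraries (log2 fold change 0.14, SE 0.09). Atp5d, the delta subunit of the F1 head, had 124, 139 and 121 CPM in KI libraries and 116, 120 and 117 CPM in KI_WT libraries (0.12, SE 0.08). Of these, the groups overlapped for Uqcrc1. The value of Uqcrc1 was 0.23 without KI 3, and that of Atp5d 0.06 without KI 2. Cox6a1 and its muscle form Cox6a2 had log2 fold changes of 0.15 (SE 0.10) and 0.30 (SE 0.19). The groups overlapped for Cox6a1, whose value was 0.05 without KI 2, and not for Cox6a2. That of Cox6a2 was -0.023 with terms for regional marker levels in the model. Cox4i1, the largest nuclear subunit of complex IV, had 0.13 (SE 0.11), and its lung form Cox4i2 had 0.08 (SE 0.27). The testis form Cox6b2 had -0.27 and the muscle form Cox8b 0.51 (SE 0.60).

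**Figure D4:**
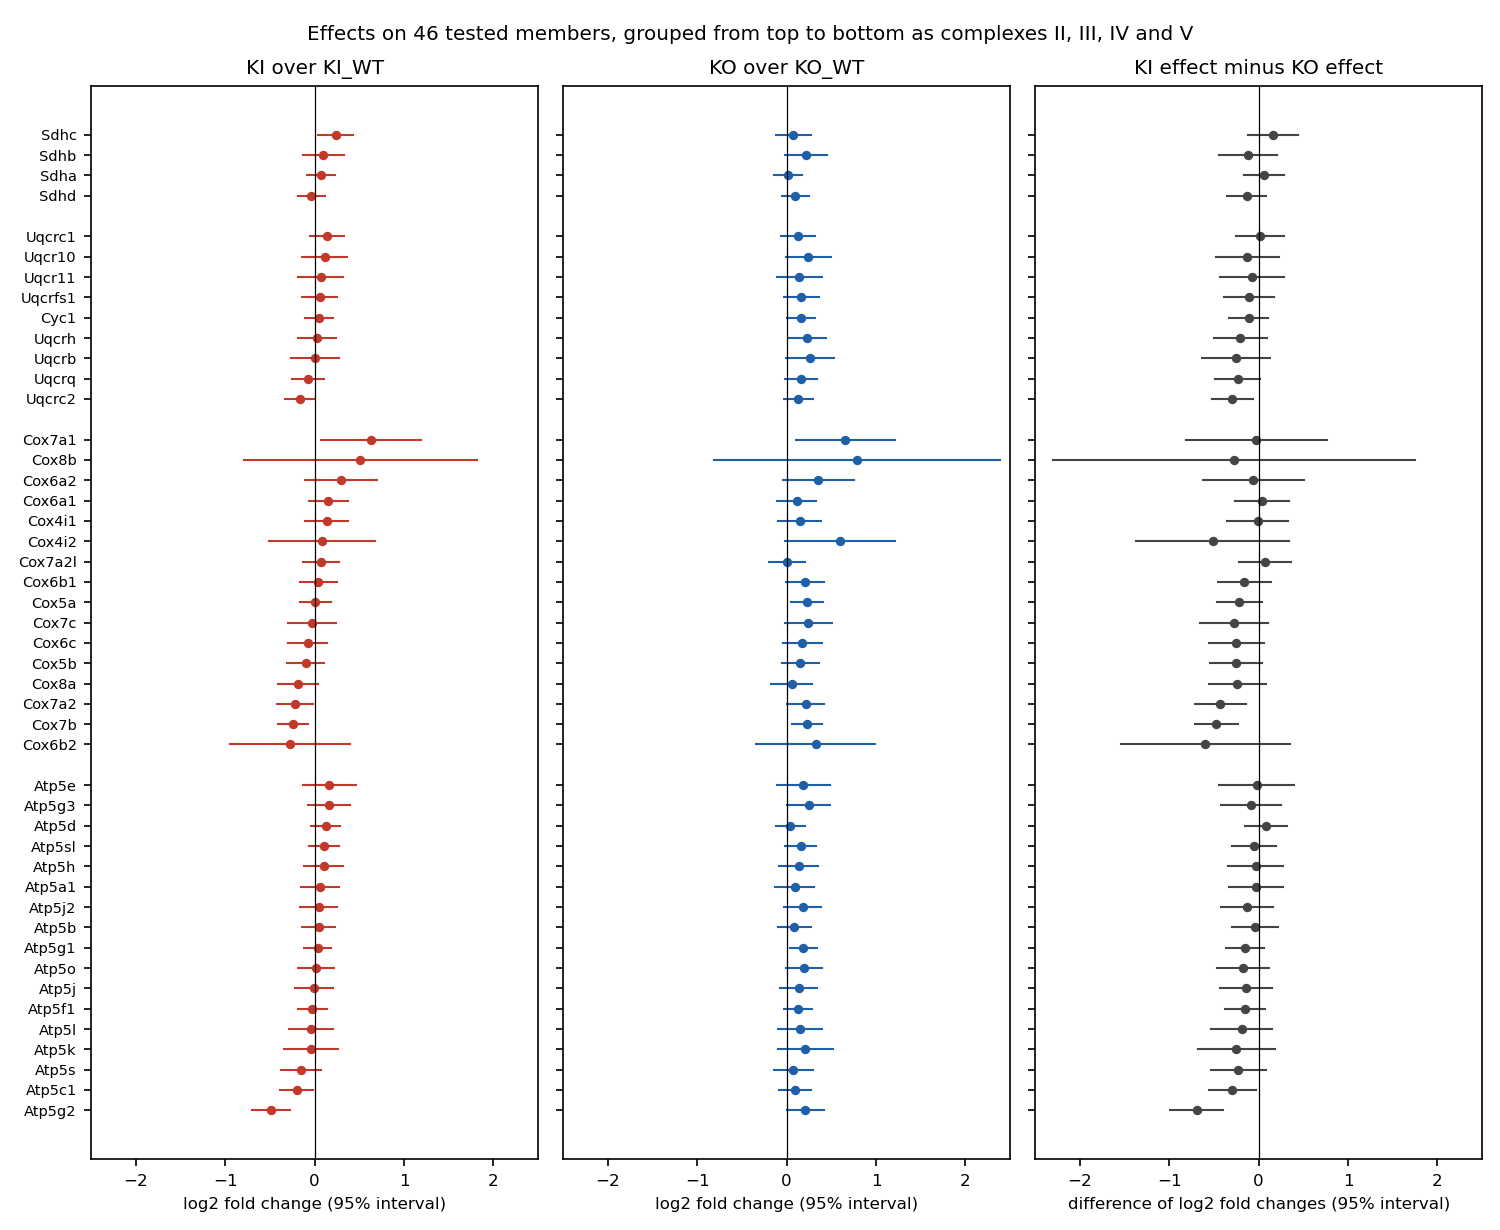
Log2 fold changes of the 46 tested members with 95% intervals for KI over KI_WT, for KO over KO_WT and for the difference between them, ordered within each complex by the first. Atp5g2 is the lowest of complex V in KI over KI_WT (-0.48), and all 46 points lie above 0 in KO over KO_WT.

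The second comparison set KO against KO_WT cortex, within the knockout line. All 46 tested members had a higher mean in KO than in KO_WT cortex (52% of all tested genes), by small amounts: the median log2 fold change was 0.16, beside 0.0076 for all genes, and the range was 0.0023 to 0.79. Cox7b, Cox5a, Atp5g1, Cox7a1, Uqcrh and Cox7a2 had the smallest p. Of 46 members 0 passed edgeR's adjusted threshold, which 1 gene outside the set passed (0.00573% of 17441), the lysosomal peptidase gene Tpp1, named after its value was seen. An unadjusted p under 0.05 was reached by 8 members (7.22% of all genes), all 8 higher in KO (3.43% of genes) and 0 lower (3.79%). For 22 members every KO library lay above every KO_WT library and for 0 below, against 5.95% and 6.4% of all genes. These were 7 of 9 in complex III, 8 of 16 in complex IV, 7 of 17 in complex V and 0 of 4 in complex II.

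Other gene sets also had higher means in KO. Of the 316 other genes under 1000 bp, 275 had a higher mean in KO (median log2 fold change 0.14), and so did 212 of the 252 in none of the lists examined (0.14). Of the 11415 longer genes 5337 did (-0.011). The nuclear complex I subunits were higher for 36 of 36 (0.15), cytosolic ribosomal proteins for 76 of 78 (0.14) and mitochondrial ribosomal proteins for 72 of 77 (0.11). Among the members themselves, the 31 of 1000 bp or more had a median of 0.16 and the 15 shorter ones of 0.21. With an offset that removes each library's trend over gene length and GC content, an alternative added after the data were seen, the members' median was 0.09, with 41 of 46 above 0.

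The size of the difference depended in part on KO 1. Without it the median was 0.10, with 42 of 47 members above 0. The count filter was applied anew in that fit and kept 47 members, against 46 with all libraries. Leaving out other libraries of the pair gave a median of at most 0.20. The labels' animal numbers fall into a low and a high range, whose meaning they do not give. In the low range, with 1 KO and 2 KO_WT libraries, 45 of 46 members were higher in KO by a median of 0.28. In the high range, with 2 KO libraries and 1 KO_WT library, 42 of 46 were higher by 0.14. Within a range 1 group has a single library, so that no test was made there. A model with a range term over all libraries gave a median of 0.20, with 46 of 46 above 0 and 0 members called. Sex was also uneven by the Y-linked genes. They summed to 0.11 CPM in KO 1, 0.12 in KO 2 and 198 in KO 3. In the KO_WT libraries they summed to 191 to 220 CPM. The part of sex in the members' difference was not tested beyond a Y-linked term in the model. With that term 0 members were called, as without it, so that this count cannot show the part of sex.

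Of complex IV, Cox7b had 138, 124 and 125 CPM in KO libraries, against 107, 110 and 112 CPM in KO_WT libraries (log2 fold change 0.23, SE 0.08, adjusted p = 0.678 by edgeR's test). Cox5a, which with Cox4i1 is an early subunit in the assembly of complex IV, had 129, 122 and 113 CPM in KO libraries, against 98.1, 105 and 109 CPM in KO_WT libraries (0.22, SE 0.08). Cox7a2 had 127, 120 and 114 CPM in KO libraries, against 96.9, 108 and 106 CPM in KO_WT libraries (0.21, SE 0.09). None of these groups overlapped, and KO 1 was the highest library each time.

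Cox7a1 had 1.40, 1.76 and 1.27 CPM in KO libraries, against 0.819, 0.901 and 1.08 CPM in KO_WT libraries (log2 fold change 0.66, SE 0.25, adjusted p = 0.678). Its groups did not overlap and its highest library was KO 2. The log2 fold change was 0.37 with terms for regional marker levels. Cox7a2l was the member with the smallest difference, with 127, 100 and 113 CPM in KO libraries and 117, 111 and 112 CPM in KO_WT libraries (0.0023, SE 0.09). The muscle, lung and testis forms other than Cox7a1 had log2 fold changes of 0.36 (SE 0.18) for Cox6a2, 0.59 (SE 0.28) for Cox4i2, 0.32 (SE 0.31) for Cox6b2 and 0.79 (SE 0.73) for Cox8b. Those of Cox4i2 alone did not overlap.

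Uqcrh, the hinge protein that helps cytochrome c bind to complex III, had 171, 147 and 141 CPM in KO libraries, against 121, 132 and 138 CPM in KO_WT libraries (log2 fold change 0.23, SE 0.10). Cyc1 had 110, 110 and 105 CPM in KO libraries, against 96.2, 93.8 and 100.9 CPM in KO_WT libraries (0.16, SE 0.07). Without KO 1 the value of Uqcrh was 0.15. Both pairs of groups stood apart, as did those of Uqcrb, Uqcr10, Uqcrq, Uqcrfs1 and Uqcrc2 at log2 fold changes of 0.13 to 0.26.

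The 3 c subunit genes lay alike in the knockout line. Atp5g1 had 124, 115 and 109 CPM in KO libraries, against 96.8, 107 and 101.5 CPM in KO_WT libraries (log2 fold change 0.19, SE 0.07). Atp5g2 had 47.4, 45.1 and 38.7 CPM in KO libraries, against 37.8, 36.9 and 38.7 CPM in KO_WT libraries (0.21, SE 0.10). Atp5g3 had 220, 193 and 180 CPM in KO libraries, against 161, 170 and 170 CPM in KO_WT libraries (0.25, SE 0.11). KO 1 was highest for all 3, no groups overlapped (those of Atp5g2 barely), and the adjusted p by edgeR's test was 0.678 for each. In complex II the log2 fold changes were 0.22 for Sdhb, 0.10 for Sdhd, 0.07 for Sdhc and 0.01 for Sdha.

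**Figure D5:**
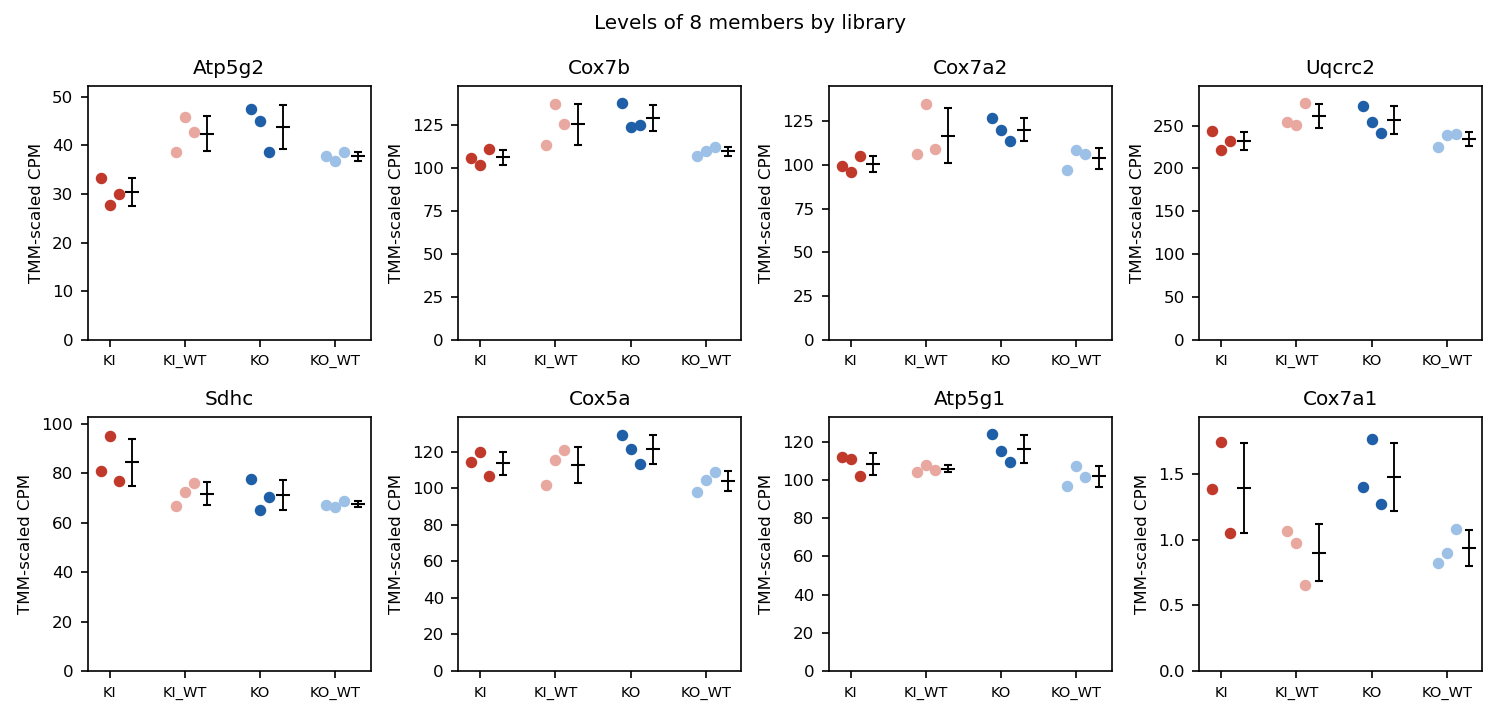
TMM-scaled CPM of 8 members, with points for libraries and bars for mean ± SD (n = 3) in KI, KI_WT, KO and KO_WT. Atp5g2 lies at 27.6 to 33.4 CPM in KI and at 36.9 CPM or above in every other library, and Cox7b at 124 to 138 CPM in KO against 107 to 112 CPM in KO_WT.

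The difference between the 2 effects, the log2 fold changes of KI over KI_WT and of KO over KO_WT, was tested within the same model. The members' effect was lower in the knock-in line for 40 of 46 (51% of all genes), with a median difference of -0.15, beside -0.0056 for all genes. Other sets leaned the same way. The effect was lower for 29 of 36 nuclear complex I subunits (median -0.15) and 70 of 78 cytosolic ribosomal proteins (-0.16). It was also lower for 52 of 77 mitochondrial ribosomal proteins (-0.064). Among the 316 other genes under 1000 bp it was lower for 226 (-0.12), and among the 11415 longer ones for 5227 (0.02). Of 46 members 0 passed (0.00573% of genes did), and 5 reached an unadjusted p under 0.05 (5.26% of all genes), 0 with the higher effect in KI (2.05% of genes) and 5 with the lower (3.21%). They were Atp5g2 (difference -0.69, SE 0.14), Cox7b (-0.47, SE 0.11), Cox7a2 (-0.43, SE 0.13), Uqcrc2 (-0.30, SE 0.10) and Atp5c1 (-0.29, SE 0.12). Their adjusted p by edgeR's test was 0.918. Of the members DESeq2 called Atp5g2 alone, with an adjusted p of 0.0201. The difference was above 0 for 6 members, among them Sdhc (0.16, or 0.06 without KI 2), Atp5d (0.08, or 0.02 without KI 2) and Sdha (0.06, or 0.0084 without KO 2). With the length and GC offset the median difference was -0.059, with 13 of 46 above 0, and without KO 1 it was -0.082.

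KI and KO cortex were also set against each other, without their wild types. The median log2 fold change over the members was -0.0084, with 21 of 46 higher in KI (50.7% of genes). Without KO 1 the median was 0.07. Atp5g2 was lower in KI (-0.53, SE 0.10, the third smallest p of the table, adjusted p = 0.811 by edgeR's test and 0.00684 by DESeq2). Cox7b (-0.28, SE 0.08) and Cox7a2 (-0.26, SE 0.09) were also lower, and Sdhc (0.25, SE 0.09), Cox8b (1.057, SE 0.62) and Cox7a2l (0.13, SE 0.09) higher. Without KI 2 the values were 0.15 for Sdhc and 0.45 for Cox8b, and without KO 2 that of Cox7a2l was 0.06. With edgeR 0 of 46 members passed, against 0.00573% of all genes. An unadjusted p under 0.05 was reached by 5 members (5.43% of all genes), 1 higher in KI (1.82% of genes) and 4 lower (3.61%). For 0 members every KI library lay above every KO library and for 5 below, against 4.23% and 5.97% of all genes.

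The 2 wild-type groups were compared as well. In KI_WT over KO_WT, 43 of 46 members lay higher in KI_WT (50.1% of genes), at a median of 0.12 on the log2 scale. Without overlap 8 did so (3.48% of genes), and 0 lay lower (3.83%). With edgeR 0 of the 46 passed, and 0% of genes did, where DESeq2 called 1 gene and 0 members. An unadjusted p under 0.05 was reached by 2 members (1.96% of genes), both higher in KI_WT (1.11%), and by 0 lower (0.849%). Cox7b had 114, 137 and 126 CPM in KI_WT libraries, against 107, 110 and 112 CPM in KO_WT libraries (0.19, SE 0.08). Cox6c (0.25, SE 0.10) and Cox4i2 (0.60, SE 0.28) were the next by p. Without KI_WT 2 the values were 0.12 for Cox7b, 0.13 for Cox6c and 0.34 for Cox4i2. The 3 members below 0 were Cox7a1 (-0.056), Cox6a2 (-0.030) and Sdha (-0.00045), and each was above 0 under some other settings. Other sets were also higher in KI_WT: 35 of 36 nuclear complex I subunits (median 0.14) and 76 of 78 cytosolic ribosomal proteins (0.11). So were 52 of 77 mitochondrial ribosomal proteins (0.04) and 237 of the 316 other genes under 1000 bp (0.08). Of the 11415 longer genes 5290 were (-0.0087). The members' median of 0.12 between the wild types stands beside 0.16 for KO over KO_WT. Both are set against the same KO_WT libraries. With the animal number range term the median between the wild types was 0.23, and without KI_WT 2 it was 0.08.

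Genes that work with the complexes but lie outside the name rule were listed as well. All 10 partner genes were higher in KO than in KO_WT (median log2 fold change 0.15), among them Higd2a (44.4 ± 3.58 CPM in KO, 36.9 ± 1.11 CPM in KO_WT; 0.27, SE 0.07), an assembly factor of complex IV and supercomplexes, and Usmg5 (135 ± 12.7 CPM in KO, 113 ± 7.53 CPM in KO_WT; 0.26, SE 0.12), a small ATP synthase subunit. In KI over KI_WT 5 of 10 were higher. The lowest p there belonged to the ADP/ATP carrier Slc25a5 (203 ± 8.41 CPM in KI, 233 ± 32.4 CPM in KI_WT; -0.20, SE 0.10) and to cytochrome c, Cycs (96.2 ± 3.11 CPM in KI, 104 ± 2.37 CPM in KI_WT; -0.11, SE 0.06). None passed in either comparison.

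Of 33 tested assembly factors of complexes II to V, 26 were higher in KO (median log2 fold change 0.08) and 22 in KI (0.05), and 0 passed. The lowest p in KO belonged to Cmc1 (14.3 ± 0.718 CPM in KO, 12.1 ± 0.475 CPM in KO_WT; 0.24, SE 0.09) and Coa4 (3.21 ± 0.213 CPM in KO, 2.48 ± 0.208 CPM in KO_WT; 0.37, SE 0.14), and in KI to Coa3 (46.8 ± 3.97 CPM in KI, 40.0 ± 1.94 CPM in KI_WT; 0.23, SE 0.08) and Cox11 (16.3 ± 0.367 CPM in KI, 14.6 ± 0.628 CPM in KI_WT; 0.16, SE 0.08). Cox11 is known in the copper insertion of complex IV, and Coa3 and Cmc1 in the making of its Co1 subunit.

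Of 14 transcriptional regulators of respiratory genes, 5 were higher in KO (median log2 fold change -0.030) and 4 in KI (-0.033), and 0 passed. Nrf1 lay at 14.7 ± 1.49 CPM in KO and 16.995 ± 0.561 CPM in KO_WT, with no overlap (-0.21, SE 0.09), and Gabpb2, a subunit of the ETS factor GABP, at 21.6 ± 1.71 CPM in KO and 25.0 ± 2.25 CPM in KO_WT (-0.21, SE 0.11). In KI over KI_WT the smallest p belonged to the mitochondrial transcription factor Tfb2m (20.6 ± 1.005 CPM in KI, 23.0 ± 1.39 CPM in KI_WT; -0.16, SE 0.08) and to Gabpb2 (-0.16, SE 0.11).

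Promoter windows of 300 bases were found in RefSeq for 34 members and for 12103 tested genes in all. The full NRF1 motif, spelled by the first 10 capitals in the Atp5g2 sequence above, occurred in 4 member windows (11.8%), those of Atp5g2, Atp5k, Cox6a1 and Uqcrc1, and in 1.83% of all windows. The shorter TGCGCA, which can overlap it, occurred in 20.6% of member windows and 13.1% of all windows. CCGGAAG, an ETS site as bound by GABP, occurred in 32.4% of member windows and 15.6% of all windows, and AAGATGGC, a YY1 site, in 2.94% and 4.08%. GGGCGG, an SP site, occurred in 35.3% of member windows and 61% of all windows. Both strands were searched. The windows' median GC content was 55.8% for members and 60.3% for all. Of the members with the full NRF1 motif, Atp5g2 lay lower in KI (-0.48), and the others had log2 fold changes of 0.14 (Uqcrc1), 0.15 (Cox6a1) and -0.041 (Atp5k).

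The mitochondrially encoded partners of complexes III to V were set beside the nuclear genes. Among these 6 genes mt-Co1, the catalytic subunit of complex IV, had 19222, 15440 and 21443 CPM in KI libraries, against 27898, 33422 and 22201 CPM in KI_WT libraries (log2 fold change -0.57, SE 0.15, adjusted p = 0.705 by edgeR's test). The KI libraries lay below the KI_WT libraries. mt-Cytb, of complex III, had 7960, 5819 and 9034 CPM in KI libraries, against 11663, 13551 and 8849 CPM in KI_WT libraries (-0.58, SE 0.17), and these overlapped. Of the 6 genes 2 had higher means in KI, and the median log2 fold change was -0.15. The highest was mt-Co2, with 16.0 ± 2.35 CPM in KI and 13.0 ± 2.63 CPM in KI_WT (0.30, SE 0.19). In KO over KO_WT the smallest p belonged to mt-Co3 (0.15, SE 0.13) and mt-Co2 (0.16, SE 0.19), with mt-Co1 at -0.088 and mt-Cytb at -0.078. For mt-Co1 every KO library (26086, 25803 and 26763 CPM) lay below every KO_WT library (28929, 27532 and 27155 CPM). The ratio of the summed nuclear complex IV RPKM to that of mt-Co1, mt-Co2 and mt-Co3 was 0.186 ± 0.0402 in KI, 0.128 ± 0.0222 in KI_WT, 0.136 ± 0.0120 in KO and 0.116 ± 0.00190 in KO_WT. The mt-Co2 and mt-Co3 values were far lower, with means of 9.95 to 16.0 CPM and 55.7 to 67.9 CPM, so that mt-Co1 makes up nearly all of the sum. Mitochondrial genes have near-identical nuclear copies, among which the authors' counting may have divided reads.

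Markers of other cells and regions differed between the groups too. All 8 excitatory neuron markers had lower means in KI than in KI_WT (sums of 3306 to 4249 CPM in KI and 2939 to 4801 CPM in KI_WT). The 10 thalamus markers summed to 351 to 497 CPM in KI, 187 to 356 in KI_WT, 288 to 494 in KO and 158 to 340 in KO_WT. They were higher for 9 of 10 genes in KI and for 10 of 10 in KO. Without overlap 7 of the 10 were higher in KI (6.32% of all genes) and 2 in KO (5.95%). All 8 choroid plexus markers were higher in KO than in KO_WT, with sums of 557 to 1067 CPM in KO and 20.3 to 885 CPM in KO_WT. They were higher for 7 of 8 in KI, with 759 to 1915 CPM in KI and 25.9 to 1634 CPM in KI_WT. All 8 oligodendrocyte markers were lower in KO, each with overlap (4818 to 10570 CPM in KO, 8861 to 11413 CPM in KO_WT). Of the 8 mural cell markers 7 were lower in KO, 4 of them without overlap (231 to 294 CPM in KO, 289 to 337 CPM in KO_WT). Of the 8 astrocyte markers 7 were lower in KO, 3 without overlap (4966 to 7181 CPM in KO, 7364 to 7954 CPM in KO_WT). Of the 8 microglia markers 7 were lower in KO, 3 without overlap (424 to 445 CPM in KO, 464 to 516 CPM in KO_WT). Among all tested genes 6.4% lay lower in KO without overlap. The 8 olfactory bulb markers were lower in KI (34.1 to 90.9 CPM in KI, 23.6 to 400.5 CPM in KI_WT, of which KI_WT 3 was the highest). Their part in the members' differences was not tested beyond adding regional marker terms to the model. With these the members' median log2 fold change was 0.05 in KI over KI_WT (27 of 46 above 0) and 0.14 in KO over KO_WT (43 of 46 above 0).

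Members with close copies or overlapping genes are less certain. Of the 48, 7 have a pseudogene of at least 98% identity over at least 200 bases, and these pseudogenes held at most 1.01% of the counts of member and copies together (Atp5l). Exons of 13 members overlap another annotated gene, on the opposite strand for most, as for Uqcrc2 with Pdzd9, Cox6c with Vps13b, Cox6a2 with Itgad, Atp5d with Cbarp and Cox5a with Gm26631. Atp5g2 overlaps the microRNA gene Mir688 on its own strand. The strand setting of the counting is not given in the sources used here, so reads of such pairs cannot be told apart.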

How the data were processed

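Cortical poly(A) RNA of 12 mice was sequenced. Per the submitters' processing notes, bcl2fastq 2.17, STAR 2.5.0c, Cufflinks 2.2.1 and build GRCm38 were used; the counter, annotation and strand setting are not given in the sources used here. The authors deposited raw counts per gene and RPKM values, which imply the same gene length in every library to within 0.0789% (8292 genes). Replicates are separate animals by title.

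Counts were tested with edgeR 4.0.16 in R 4.3.3: filterByExpr by group (17441 genes), TMM scaling, 1 mean per group over all 12 libraries (8 residual degrees of freedom; common BCV, the between-animal variation, 15.7%), quasi-likelihood F tests and Benjamini-Hochberg adjustment over all tested genes (threshold 0.05). Standard errors and 95% intervals come from that test. The script was tested on simulated data with changes larger than the members' medians. The power to find differences of that smaller size was not measured. CPM are TMM-scaled; per-library deviations use log2 CPM with a prior count of 2. DESeq2 1.42.0, limma 3.58.1, other scalings, filters, covariates and leaving out each library were alternatives. Pseudogenes were found with BLAST 2.17.0.

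The members and lists were chosen with earlier results of these data known. Named members are, in each genotype comparison, up to 6 higher and 6 lower by smallest p (3 elsewhere), tissue-form families, complex II and the highest and lowest of each complex; from pathway lists, up to 2 genes per comparison. Others were chosen after their values were seen.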

Additional observations from a re-analysis of the deposited data

How the results depend on the processing

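Replicates spread far beyond read sampling, so each value rests on 3 animals a group. The alternatives comprised 14 other models or settings and the leaving out of each library (range given as lowest to highest). Members called stayed at 0 except with DESeq2, which called Atp5g2 in KI over KI_WT, in KI over KO and in the difference of effects (1 member each).

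All genes called numbered 4 with DESeq2 and 1 with only the compared groups in KI over KI_WT. In KO over KO_WT they numbered 8 with DESeq2, 0 with regional marker terms, and 1 to 6 over the leave-outs (6 without KO 3). In KI over KO they numbered 14 with DESeq2, 2 with no count filter and 0 with only the compared groups, and in KI_WT over KO_WT 1 with DESeq2 and 1 with only the compared groups. For the difference of effects they numbered 5 with DESeq2, 0 with regional marker terms, 0 with a Y-linked term, and 0 to 1 over the leave-outs.

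Over the leave-outs the members' median log2 fold change was -0.028 (without KI_WT 1) to 0.095 in KI over KI_WT, 0.10 (without KO 1) to 0.20 in KO over KO_WT, and -0.041 to 0.07 in KI over KO. It was 0.08 to 0.18 in KI_WT over KO_WT, 0.23 there with an animal number range term, and -0.20 to -0.082 for the difference, which was -0.059 with the length and GC offset, an alternative chosen after seeing the data. The cause was not tested.

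The sign of some single members turned. Cox6a2 was -0.023 in KI over KI_WT with regional terms, against 0.30 without them. In KI_WT over KO_WT it was 0.085 with regional terms, 0.055 with a Y-linked term and -0.11 to 0.040 over the leave-outs. There Cox7a1 was 0.028 with limma voom and -0.18 to 0.13 over the leave-outs. Sdha was there 0.0060 with RLE size factors and with DESeq2, 0.014 with library totals, 0.0018 with TMM without mitochondrial genes, 0.00066 with no filter, 0.0083 with at least 1 CPM, 0.015 on either log2 RPKM scale, 0.061 with the range term, 0.0044 with the Y-linked term, 0.021 with the length and GC offset, 0.0029 with only the compared groups, and -0.016 to 0.028 over the leave-outs.

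No paired analysis was possible because the replicate numbers only follow the order of the sample records and every library has its own animal number.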
